A study of Mus musculus with 6 samples.

Results

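Kinesins are motor proteins that use ATP to walk along microtubules or to take their ends apart. The 42 kinesin genes described here are those whose symbol starts with Kif followed by a digit or the letter c, among the 22026 gene symbols with an FPKM value (a level scaled to the length of the transcript and to the size of the library). By their known roles, 14 were set down as mitotic kinesins, 17 as transport kinesins and 10 as other kinesins, which act in cilia, in signalling or in more than one of these processes. Kif4b was left without a class and was listed at 0 in every sample. The FPKM values come from RNAseq of choroid endothelial cells (ECs) of 129/B6 mice at postnatal day 5 (P5) and at P30, with 3 isolations per age and 7 animals pooled in each. The groups differed in age alone by their labels. All animals received an injected fluorescent antibody against VE-Cadherin (a cell-cell adhesion molecule that marks ECs), by which the cells of the dissected RPE/choroid were sorted, but by the study's methods the dose of antibody and the anaesthesia also differed between ages and cannot be told apart from age. FPKM values hide how many reads lie behind them, so depth is unknown, and a value of 0 does not show that a transcript was absent.

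A dividing cell builds a spindle of microtubules to part its chromosomes, and mitotic kinesins push the spindle poles apart, move the chromosomes, trim microtubule ends and build the midzone at which the cell divides. Many of these genes are known to be switched on shortly before mitosis and to be low in resting cells. Transport kinesins carry vesicles, organelles and other cargo along microtubules in resting and dividing cells alike. Most move outward, though Kifc2 and Kifc3 are minus-end motors, and many use light chains or adaptor proteins as links to the cargo. In a growing vessel bed ECs divide, and in an adult one most ECs rest.

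All 10 endothelial markers were present in every isolation, with a summed FPKM of 21779 to 23403 at P5 and 30645 to 37052 at P30. Of the 10, 6 were higher in each P30 isolation, as were 22% of all genes tested. Plvap, with a mean of 4692 at P5 and 11590 at P30, was the one called higher. Cdh5 (VE-Cadherin) was the one lower in each P30 isolation, at 2878 to 3069 FPKM at P5 and 1839.8 to 1943 at P30, and was not called. RNA of other cells was present as well. In the order of the replicate numbers, used for all lists of 3 values here, the 8 RPE genes summed to 149, 68.3 and 73.1 FPKM at P5, with Rpe65 at 0 in replicates 2 and 3, but to 3854, 2139 and 503 at P30, and the 7 pericyte genes to 1765, 933 and 497 at P5 but to 1872, 6290.4 and 3857 at P30. Of the other lists, 6 smooth muscle genes (85.4 to 175 against 311 to 1083), 6 fibroblast genes (422 to 851 against 1443 to 3244), 10 photoreceptor genes (15.8 to 29.9 against 64.5 to 461) and 5 Schwann cell genes (12.9 to 51.4 against 60.2 to 306) had higher sums in each P30 isolation than in any at P5, while the sums of 5 pigment cell genes (97.0 to 457 against 119.9 to 1251), 7 haematopoietic genes (541 to 802 against 318 to 809) and 6 neuronal genes (64.3 to 112 against 47.6 to 93.7) overlapped between ages. Of the 7 haematopoietic genes, 3 were nevertheless lower in each P30 isolation, as were 33% of all genes tested. Csf1r was one of them by a narrow margin (lowest P5 value 169.4, highest P30 value 169.1) and was not called (limma adjusted p = 0.0408). The other 2, named here after their values were seen, were called lower, as were 5.82% of all genes tested. Ptprc had 25.4, 27.7 and 28.3 at P5 and 7.97, 7.61 and 7.88 at P30 (-1.67 ± 0.18 SE in log2, limma adjusted p = 0.000732). Aif1 had 48.4, 62.4 and 43.5 at P5 and 16.6, 4.86 and 5.21 at P30 (-2.59 ± 0.43 SE in log2, limma adjusted p = 0.00368). Lyz2 (mean 204 at P5 and 254 at P30) and Cd14 (61.0 and 86.3) had higher means at P30. Cd68 (116 and 94.6) and Itgam (12.85 and 7.71) had lower ones, and the ages overlapped in each of these genes. Ptprc and Aif1 moved in the same direction as the mitotic kinesins, and the part of blood cells in those was not tested.

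Mitotic kinesins fell from P5 to P30. Of the 14 transport kinesins tested, 12 were not called in either direction, and of all genes tested 11.7% were called. Summed over the class, mitotic kinesins reached 487, 679 and 877 FPKM at P5 but 50.7, 34.3 and 47.7 at P30. The P5 mean of 681 ± 195 (SD, n = 3) was 15.4 times the P30 mean of 44.2 ± 8.75 (SD, n = 3). The transport kinesins summed to 1127, 1059 and 1079 at P5 and 1075, 1152 and 989 at P30, so that the P30 mean was 98.5% of that at P5, and the sums overlapped. Mitotic kinesins made up 25.9%, 33.9% and 39.4% of all kinesin FPKM in the P5 isolations and 3.85%, 2.45% and 3.94% in the P30 isolations. In sorted cells, fewer dividing cells and less of these transcripts per cell cannot be told apart. The marker sums of several other cell types also differed between ages, and the part of those cells in the fall was not tested.

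**Figure D1:**
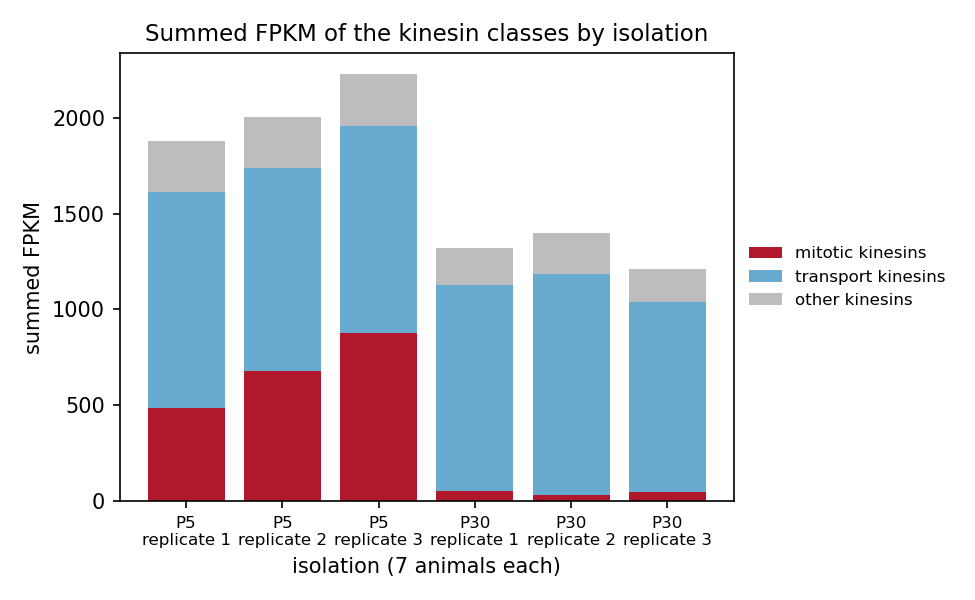
Summed FPKM of mitotic, transport and other kinesins (stacked bars) in each of the 6 isolations. The mitotic part is 487 to 877 at P5 and 34.3 to 50.7 at P30, while the transport part stays between 989 and 1152.

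Differences between ages were tested for each gene with limma on log2(FPKM + 1), over the 12481 genes whose mean FPKM reached 5 in either age. To be called, a gene had to pass 0.01 in the p-value adjusted by Benjamini and Hochberg's method and 2-fold in mean FPKM + 1. Of all genes tested, 5.82% were called lower at P30 and 5.89% higher. All 13 mitotic kinesins that were tested were called lower at P30. The remaining one, Kif2b, was listed at 0 in every isolation. Of the 13, 10 had a mean FPKM under 5 at P30 and so entered the test through P5 alone. Among the 14 transport kinesins tested, limma called 0 lower and 2 higher, and 3 were lower and 3 higher at an unadjusted p under 0.05. Of the 4 other kinesins tested, limma called 0 in either direction, and 3 were lower and 0 higher at an unadjusted p under 0.05. Over all genes tested, 28.8% were lower and 20.7% higher at that unadjusted limit. The median log2 fold change of the tested members was -3.50 for mitotic, -0.02 for transport and -0.86 for other kinesins, beside -0.10 over all genes tested. Over every member above 0 in any isolation, tested or not, it was -3.50, 0.03 and -0.46, beside -0.05 over all 15773 such genes. In each of the 13 mitotic kinesins, every P30 isolation was below every P5 isolation, as was the case in 33% of all genes tested. The same held for 2 transport kinesins and 3 other kinesins, none of which was called. Leaving out P5 replicate 1, 2 or 3 left 12, 10 or 9 mitotic kinesins called, when the genes called lower overall went from 726 to 427, 291 and 297, and leaving out any P30 replicate left 13.

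**Figure D2:**
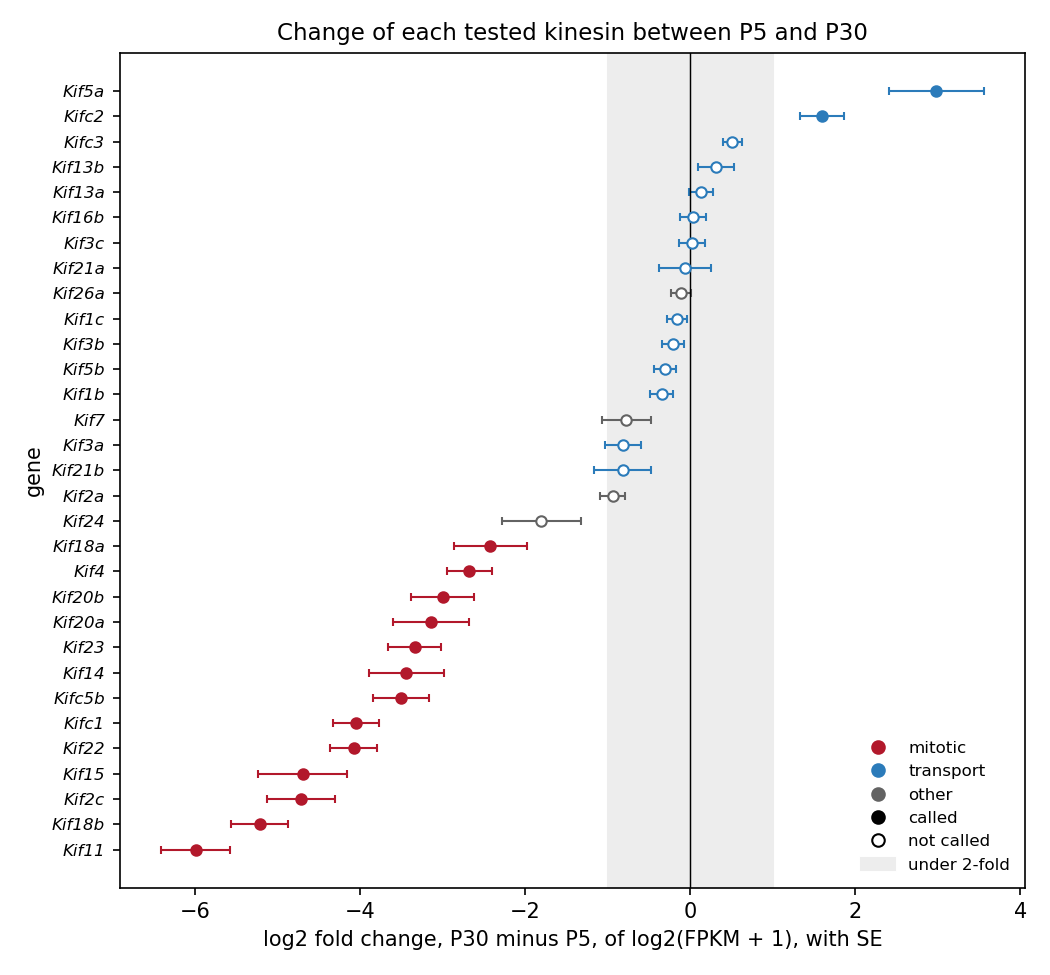
Log2 fold change (P30 minus P5, of log2(FPKM + 1)) with its standard error for the 31 kinesins tested, filled where called. The 13 mitotic kinesins lie between -5.99 and -2.42, and the other members between -1.80 and 2.98.

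Among motors that build the spindle, Kif11, which slides microtubules of opposite direction apart and so drives the poles from each other, was among the mitotic kinesins with the largest differences. Kif11 had 53.7, 84.1 and 116 FPKM at P5, whereas the P30 isolations were at 0, 1.12 and 0 (-5.99 ± 0.42 SE in log2, limma adjusted p = 0.000172). Its gene lies on chromosome 19, 37450893 to 37496349 of mm9. Kif15, which can share the work of Kif11 on the spindle, was at 34.5, 53.0 and 63.8 at P5 and at 3.25, 0.70 and 0 at P30 (-4.69 ± 0.54 SE in log2, limma adjusted p = 0.000869). Both genes were at or near 0 in most P30 isolations, and for both the lowest P5 isolation was far above the highest P30 one. Kifc1, a minus-end motor that bundles microtubules at the poles, fell from 33.7, 48.1 and 57.7 to 2.09, 1.5 and 1.85 (-4.05 ± 0.28 SE in log2, limma adjusted p = 0.000167). Its near copy Kifc5b fell from 17.5, 21.8 and 24.5 to 0.79, 0.66 and 1.48 (-3.50 ± 0.34 SE in log2, limma adjusted p = 0.00044). Of the 50-base words in the annotated Kifc1 transcripts, 45.3% also occur in Kifc5b, so the split of reads between the copies is uncertain. With both summed to 1 gene, the log2 fold change was -4.17 (SE 0.25, adjusted p = 0.000116 from limma).

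Motors that act on chromosomes and on microtubule ends fell too. Kif22, which binds chromosome arms and pushes them toward the spindle equator, had 62.7, 94.9 and 106 FPKM at P5 and 6.03, 3.39 and 3.43 at P30 (-4.08 ± 0.28 SE in log2, limma adjusted p = 0.000168). Kif2c, which takes microtubule ends apart at the centromere, had 21.1, 30.5 and 42.7 at P5 and was listed at 0, 0.69 and 0 at P30 (-4.71 ± 0.41 SE in log2, limma adjusted p = 0.000332). Kif18b, another motor that shortens microtubules in mitosis, was the one mitotic kinesin with P5 values that was listed at 0 in the 3 P30 isolations. It had 28.0, 36.0 and 46.7 FPKM at P5 (adjusted p = 0.000149 from limma), and no fold is given against values of 0. Its relative Kif18a, which damps the swinging of chromosomes at the spindle equator, kept the largest share of its P5 level. Kif18a had 17.6, 26.6 and 29.9 FPKM at P5 and 1.44, 5.90 and 5.07 at P30, where its mean was 16.8% of that at P5 (-2.42 ± 0.44 SE in log2, limma adjusted p = 0.00553). Without P5 replicate 1, 2 or 3, Kif18a was no longer called (adjusted p = 0.0152, 0.0310 and 0.0332 from limma). Kif4, a chromosome-bound motor that also sets the length of midzone microtubules, fell from 35.1, 45.8 and 54.3 to 4.46, 5.85 and 8.57, to 14.0% of its P5 mean (-2.68 ± 0.28 SE in log2, limma adjusted p = 0.000552).

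Motors of the midzone and of cytokinesis fell as well and spanned the range of levels in the class. Kif23, part of the complex that bundles the midzone and calls in the machinery for the cut, had the highest mean of the class at both ages, although Kif20a exceeded it in P30 replicate 3. It had 90.3, 121 and 167 FPKM at P5 and 17.6, 7.94 and 9.99 at P30, or 9.37% of its P5 mean (-3.34 ± 0.32 SE in log2, limma adjusted p = 0.00044). Kif20a, which carries the chromosomal passenger complex to the midzone, fell from 54.7, 71.7 and 104 to 7.62, 3.50 and 15.0 (-3.14 ± 0.46 SE in log2, limma adjusted p = 0.00224). Kif20b, which acts late in cytokinesis, fell from 29.4, 35.0 and 49.0 to 7.07, 3.03 and 2.31 (-3.0 ± 0.38 SE in log2, limma adjusted p = 0.0013). Kif14, which brings citron kinase to the midbody, had the lowest P5 mean among the 13 tested, with 9.07, 11.1 and 14.1 at P5 and 0.43, 0 and 0 at P30 (-3.44 ± 0.45 SE in log2, limma adjusted p = 0.00153). In all 4 genes the P5 and P30 isolations stood apart, but 3 of the calls were lost when a P5 isolation was left out. Without P5 replicate 2 the adjusted p from limma was 0.0130 for Kif20a and 0.0182 for Kif14, and without P5 replicate 3 it was 0.0154 for Kif20a, 0.0110 for Kif20b and 0.0176 for Kif14.

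In the mm9 annotation, exons of Kif20a and Kif4 overlap those of genes on the opposite strand. Cdc23 covers 32.3% of the exon bases of Kif20a, and Pdzd11 covers 15.1% of those of Kif4. Cdc23 had between 68.7 and 95.7 FPKM and Pdzd11 between 97.9 and 127 in the 6 isolations. Whether the counting used strand is not given in the sources used here, so reads from these stretches cannot be told apart, and their part in the P30 values of Kif20a and Kif4 was not tested. Among the kinesins of the other classes, Dimt1 (12.7 to 27.3 FPKM) covers 17.4% of Kif2a in the same way, and 1110002L01Rik (2.24 to 6.08 FPKM) 17.1% of Kif3c. For Kif7, 9330171B17Rik covers 17.5% and 5730590G19Rik, which had 7.38 to 12.1 FPKM at P5 and 0 to 0.35 at P30, covers 0.80%, and their part in the Kif7 values was not tested.

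**Figure D3:**
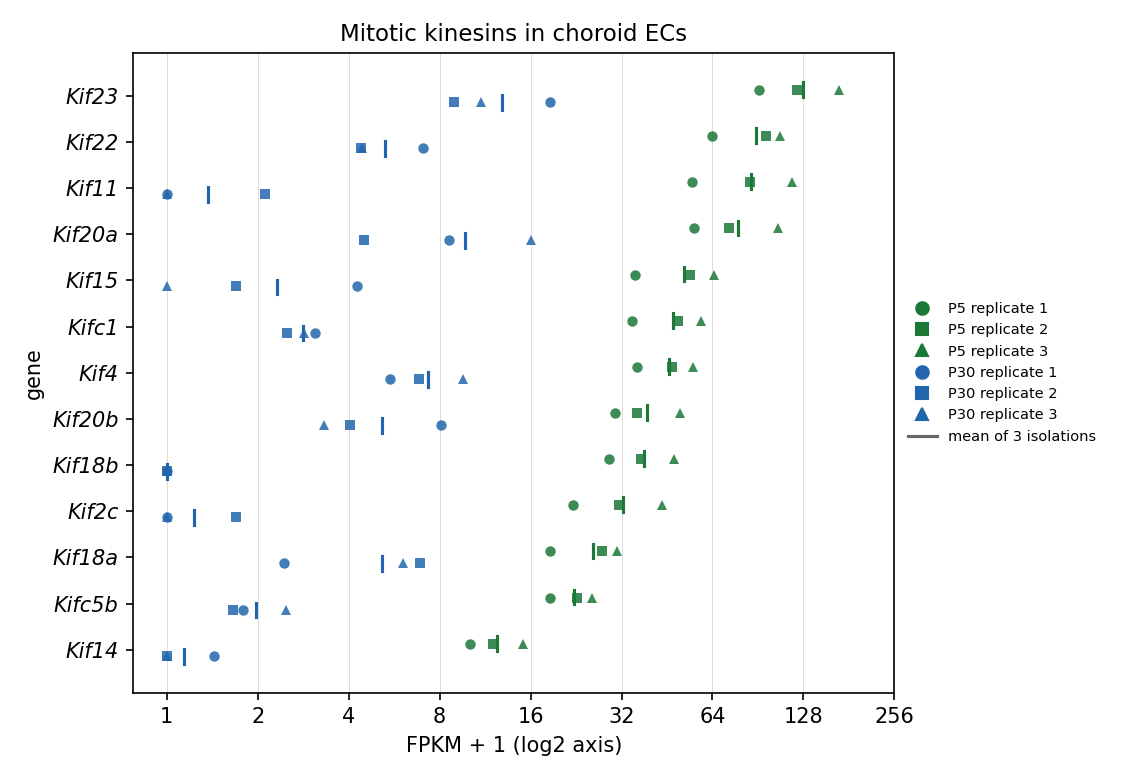
FPKM + 1 on a log2 axis for the 13 mitotic kinesins above 0, with 1 point per isolation and a bar at the mean of the 3 isolations. For every gene the P5 points lie to the right of the P30 points, and P5 replicate 3 lies farthest to the right.

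The mitotic kinesins also differed among the P5 isolations, and in the same way. All 13 were highest in P5 replicate 3 and lowest in P5 replicate 1, an order found in 19.3% of all genes tested, and the ratio of the highest to the lowest P5 value ran from 1.40 (Kifc5b) to 2.17 (Kif11), with a median of 1.70. In transport kinesins this order was found in 0 of the 14 tested, and the median ratio was 1.18. Mki67, the gene of the proliferation marker Ki-67, had 109.9, 147 and 204 FPKM in P5 replicates 1, 2 and 3, and Top2a, which untangles DNA before mitosis, had 153, 219.6 and 293. Divided by Mki67 in the same isolation, the mitotic kinesin sum gave ratios of 4.43, 4.63 and 4.30 at P5, and divided by Top2a it gave 3.19, 3.09 and 2.99. At P30, where all of these genes were low, the ratios were higher and more spread, at 30.9, 10.8 and 25.4 for Mki67 and 21.1, 10.5 and 35.9 for Top2a. The kinesin sum and these genes were thus highest in the same P5 isolation and lowest in the same one. The pericyte sum went the other way, with 1765, 933 and 497. So did the smooth muscle (175, 122 and 85.4), haematopoietic (802, 752 and 541), Schwann cell (51.4, 29.7 and 12.9) and pigment cell sums (457, 118 and 97.0). The RPE, photoreceptor, fibroblast and neuronal sums did not follow this order. The part of other cells in these differences was not tested. At P30 the isolations had no shared order, since 6 of the mitotic kinesins were highest in replicate 1, 3 in replicate 2 and 3 in replicate 3, with Kif18b at 0.

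Proteins that work with the mitotic kinesins fell with them. All 12 listed partners were called lower at P30, with a median log2 fold change of -4.82 in limma, beside 5.82% of all genes tested. Of the 12, 11 had a mean FPKM under 5 at P30 and so entered the test through P5 alone. The list was chosen with earlier results of these data known, so the count is a description. Prc1, the microtubule bundler that Kif4 carries to the midzone, had 87.2, 119 and 138 FPKM at P5 and 1.94, 3.50 and 1.51 at P30 (-5.15 ± 0.29 SE in log2, limma adjusted p = 9.2e-05). Racgap1, which forms the midzone complex with Kif23, had 78.3, 112 and 136 at P5 and 2.94, 4.43 and 2.15 at P30 (-4.72 ± 0.29 SE in log2, limma adjusted p = 0.000119). Tpx2, which recruits Kif11 to spindle microtubules, fell from 73.5, 104 and 135 to 2.76, 2.57 and 1.49 (-4.99 ± 0.29 SE in log2, limma adjusted p = 9.3e-05). Incenp, the scaffold of the passenger complex that Kif20a carries, kept the highest P30 level of the list, with 73.0, 94.0 and 125 at P5 and 11.9, 12.0 and 13.3 at P30 (-2.84 ± 0.21 SE in log2, limma adjusted p = 0.000204). Cenpe, a kinesin of the kinetochore that carries no Kif symbol and is not among the 42, fell from 30.4, 41.6 and 62.7 to 0.14, 0.75 and 1.03 (-4.79 ± 0.38 SE in log2, limma adjusted p = 0.000255). Of 9 proliferation genes, 8 were called lower, and 7 had a mean FPKM under 5 at P30 and entered the test through P5 alone. The one not called, Pcna, the sliding clamp of DNA replication and repair, had 264, 312 and 334 FPKM at P5 and 368, 431 and 362 at P30. It was higher in each P30 isolation but not past the limits (0.35 ± 0.12 SE in log2, limma adjusted p = 0.0582).

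Since the mitotic kinesins moved together, their promoters were compared for the letters of 2 elements known from genes of late cell cycle, the cell cycle genes homology region (CHR, TTTGAA or TTCGAA) and the CCAAT box (CCAAT), and of the E2F element (TTTCGCGC, TTTGGCGC, TTCCCGCC and TTGGCGC, the last of which lies within the second), on both strands of 300 bases from 250 before to 50 after the annotated start (RefSeq, GRCm38.p6). Of the 42 kinesins, 33 had an entry. Of the 12 mitotic kinesins called lower that had one, 11 (91.7%) held TTTGAA, against 14.0% of the genes tested and 20.2% of all genes of the table, and 0 held TTCGAA. Among 8 transport kinesins tested that had an entry, 0 held either, and over all 11 transport kinesins with one, Kif1a alone held TTTGAA. The box of CCAAT letters was in 8 of the 12 (66.7%), against 43.3% of the genes tested, and 8 of the 12 held both a CHR and a CCAAT box, against 6.77% of the genes tested. E2F letters were found in Kif15 and Kif18a alone among the 12 (16.7%, against 10.3% of the genes tested). In 9 of the 12 (75%), TTTGAA began within 30 bases of the start, against 2.43% of the genes tested, a window set after the positions had been seen. The near copies Kifc1 and Kifc5b are counted separately among the 12. Both hold TTTGAA within that window and CCAAT, so they are not independent members of these counts. Of 9 other kinesins with an entry, 3 (33.3%) held both a CHR and a CCAAT box. Of the 9 mitotic partners with a promoter, 8 held TTTGAA, as did 5 of 8 proliferation genes (62.5%), 1 of 20 dynein and dynactin genes and 0 of 8 adaptors and light chains. CCAAT was in 8 of the 9 partners, 8 of 8 proliferation genes, 8 of 20 dynein and dynactin genes and 5 of 8 adaptors and light chains (62.5%). These matches describe the letters and do not show that a factor binds there.

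The following stretches run from 100 bases before to 20 bases after the start, 5′ to 3′ on the strand of the gene, with the CHR, the CCAAT box and the E2F letters, on either strand, in capitals. The first 3 belong to the mitotic kinesins of highest P5 mean FPKM among those with a promoter, and Kif18b is the one listed at 0 at P30. Kif18a is the one of the 12 called lower that lacks TTTGAA, and Kif1c is the transport kinesin of highest mean FPKM with a promoter.
Kif23 (chr9:61946780-61946899, minus strand): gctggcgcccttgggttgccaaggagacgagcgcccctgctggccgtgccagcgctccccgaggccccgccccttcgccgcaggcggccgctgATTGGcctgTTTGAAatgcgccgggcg
Kif22 (chr7:127042401-127042520, minus strand): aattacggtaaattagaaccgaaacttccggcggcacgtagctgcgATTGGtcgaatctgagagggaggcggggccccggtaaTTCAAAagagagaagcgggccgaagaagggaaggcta
Kif11 (chr19:37376282-37376401, plus strand): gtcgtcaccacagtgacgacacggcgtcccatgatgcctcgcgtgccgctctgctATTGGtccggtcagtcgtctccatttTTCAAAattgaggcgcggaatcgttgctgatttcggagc
Kif18b (chr11:102925105-102925224, minus strand): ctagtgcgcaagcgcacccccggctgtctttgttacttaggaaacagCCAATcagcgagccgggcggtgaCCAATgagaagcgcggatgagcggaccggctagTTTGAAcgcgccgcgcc
Kif18a (chr2:109280638-109280757, plus strand): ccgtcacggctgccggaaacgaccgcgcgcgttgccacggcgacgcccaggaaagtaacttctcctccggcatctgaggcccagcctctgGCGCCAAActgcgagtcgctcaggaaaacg
Kif1c (chr11:70700448-70700567, plus strand): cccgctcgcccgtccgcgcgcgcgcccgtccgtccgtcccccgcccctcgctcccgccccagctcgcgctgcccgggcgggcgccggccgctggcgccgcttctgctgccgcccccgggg
Counted from 1 at the start, with -1 before it, the CCAAT box begins at -45 and the CHR at -19 in Kif11, and at -54 and -17 in Kif22, all on the other strand. In Kif23 the CCAAT box begins at -7 on the other strand and the CHR at 3. Kif18b has a CCAAT box at -53, another at -30 and the CHR at 4. Kif18a holds E2F letters at -10 on the other strand and no CHR, and the Kif1c stretch holds none of the 3 kinds of letters. In FPKM these are, in the order printed, 4 genes that fell to between 0 and 9.37% of their P5 mean, 1 that kept 16.8% and 1 that did not pass the test. The rest of the 12, not printed, all hold TTTGAA. Of those, Kif4 and Kif20b kept 14.0% and 10.9%, and Kif2c, Kif14, Kif15, Kifc1 and Kifc5b kept 0.73% to 4.59%. Whether the letters go with the size of the fall was not tested.

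Transport kinesins had the largest summed FPKM of the family at both ages, and 2 of them were called higher at P30. Kif5b, the heavy chain of conventional kinesin, which carries mitochondria and vesicles, had 272, 262 and 305 FPKM at P5 and 208, 269.9 and 207 at P30 (-0.30 ± 0.13 SE in log2, limma adjusted p = 0.109). It made up between 91.6% and 99.8% of the summed FPKM of the Kif5 genes. Kif5a, the heavy chain best known from neurons, was called higher at P30, from 0.42, 0.29 and 0.59 to 8.41, 22.8 and 5.40 (2.98 ± 0.58 SE in log2, limma adjusted p = 0.00689). Every P30 value exceeded every P5 value, and P30 replicate 2 was far above the others. Kif5a was not called without any single P5 replicate, without P30 replicate 1 or without P30 replicate 2, where the adjusted p from limma was 0.0224, 0.0292, 0.0260, 0.0139 and 0.0198. It entered the test through P30 alone. The P30 isolations ranked in Kif5a as they did in the smooth muscle sum (431, 1083 and 311) and in the neuronal sum (91.6, 93.7 and 47.6). All 6 smooth muscle genes were higher in each P30 isolation, as were 22% of all genes tested, while the neuronal sums overlapped between ages. Replicate 2 was the highest P30 isolation in 5757 of all 12481 genes tested. Kif1a, a vesicle motor also best known from neurons, had the same order and was too low to be tested (1.59, 0.69 and 0.81 at P5 and 4.51, 8.17 and 1.51 at P30). Of the 6 neuronal markers, Stmn2 lay between 42.4 and 109 FPKM and overlapped between ages, and the other 5 did not exceed 7.49 in any isolation. Nefl alone of the 6 was higher in each P30 isolation, at 0 throughout P5 and at 2.66, 0.89 and 0.69 at P30, and was too low to be tested. The part of other cells in the Kif5a values was not tested. The third Kif5 gene, Kif5c, lay between 0.31 and 2.09.

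Kifc2 and Kifc3, minus-end motors, were both higher in each P30 isolation than in any at P5, as was the case in 22% of all genes tested. Kifc2, known for cargo transport in dendrites, rose from 5.46, 5.64 and 3.92 to 19.7, 18.2 and 13.8, 3.44-fold in mean FPKM (1.60 ± 0.27 SE in log2, limma adjusted p = 0.00408). Its call was lost without P5 replicate 1, 2 or 3 or P30 replicate 2, with an adjusted p from limma of 0.0155, 0.0190, 0.0192 and 0.0128. Its P30 isolations ranked as they did in the RPE sum, of which all 8 genes were higher in each P30 isolation, and also in the photoreceptor (461, 310.2 and 64.5), Schwann cell (306, 129 and 60.2) and pigment cell (1251, 1118 and 119.9) sums, and the part of these cells was not tested. Kifc3, which acts in epithelial cells at the zonula adherens and in apical transport, had the highest P30 mean of the family, 184, 176 and 163 at P5 and 281, 223 and 246 at P30. Its difference was 1.43-fold and past neither limit (0.51 ± 0.11 SE in log2, limma adjusted p = 0.0122).

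Kif3a and Kif3b pair as the motor of kinesin-II, which builds cilia and carries cadherin-bearing vesicles, with Kifap3 as the third subunit. Kif3b had 60.2, 56.5 and 57.8 FPKM at P5 and 56.6, 50.7 and 44.0 at P30 (-0.21 ± 0.13 SE in log2, limma adjusted p = 0.247), with 1 P30 isolation within the P5 range. Kif3a was lower in each P30 isolation, with 51.9, 45.2 and 45.6 at P5 and 18.8, 32.7 and 30.2 at P30, but passed neither limit (-0.82 ± 0.22 SE in log2, limma adjusted p = 0.0238). The ratio of Kif3a to Kif3b was 0.86, 0.80 and 0.79 in the P5 isolations and 0.33, 0.65 and 0.69 in the P30 isolations, lowest in P30 replicate 1. Among the P30 isolations, replicate 1 had the highest RPE, photoreceptor, Schwann cell, pigment cell and haematopoietic sums. It also had the lowest pericyte and fibroblast sums, and the part of other cells in the ratio was not tested. Kifap3, named here outside the rule because it binds both, had 73.3, 69.5 and 72.1 at P5 and 41.0, 61.8 and 45.8 at P30 (-0.54 ± 0.17 SE in log2, limma adjusted p = 0.0365). Kif3c, an alternative partner of Kif3a, had 27.6, 25.7 and 27.6 at P5 and 24.2, 30.7 and 27.7 at P30, with overlapping ranges (0.02 ± 0.16 SE in log2, limma adjusted p = 0.914).

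The remaining transport kinesins did not pass the test. Kif1c, which carries dense vesicles and adhesion receptors, was second in the family at P5, with 233, 224 and 192 FPKM at P5 and 212, 193 and 175 at P30 (-0.16 ± 0.12 SE in log2, limma adjusted p = 0.317). Kif1b, a carrier of mitochondria and synaptic vesicle precursors, had 138, 126 and 150.2 at P5 and 97.7, 128 and 101 at P30 (-0.35 ± 0.14 SE in log2, limma adjusted p = 0.0812). The endosomal motor Kif13a, which also moves melanosome cargo in pigment cells, had 79.8, 72.7 and 68.6 at P5 and 83.3, 93.1 and 67.7 at P30 (0.13 ± 0.15 SE in log2, limma adjusted p = 0.497). For these 3 genes the isolations of the ages overlapped. Kif13b was between 18.6 and 31.9 FPKM over the 6 isolations, Kif16b, a motor of early endosomes, between 25.9 and 33.7, and Kif21a between 5.11 and 9.23, with adjusted p of 0.278, 0.880 and 0.896 from limma. Kif21b, which slows microtubule growth, was lower in each P30 isolation, from 9.28, 8.43 and 7.26 to 5.68, 4.78 and 2.79, without passing the test (-0.82 ± 0.34 SE in log2, limma adjusted p = 0.0958). Kif17, which moves cargo in dendrites and cilia, was listed at 0 throughout.

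**Figure D4:**
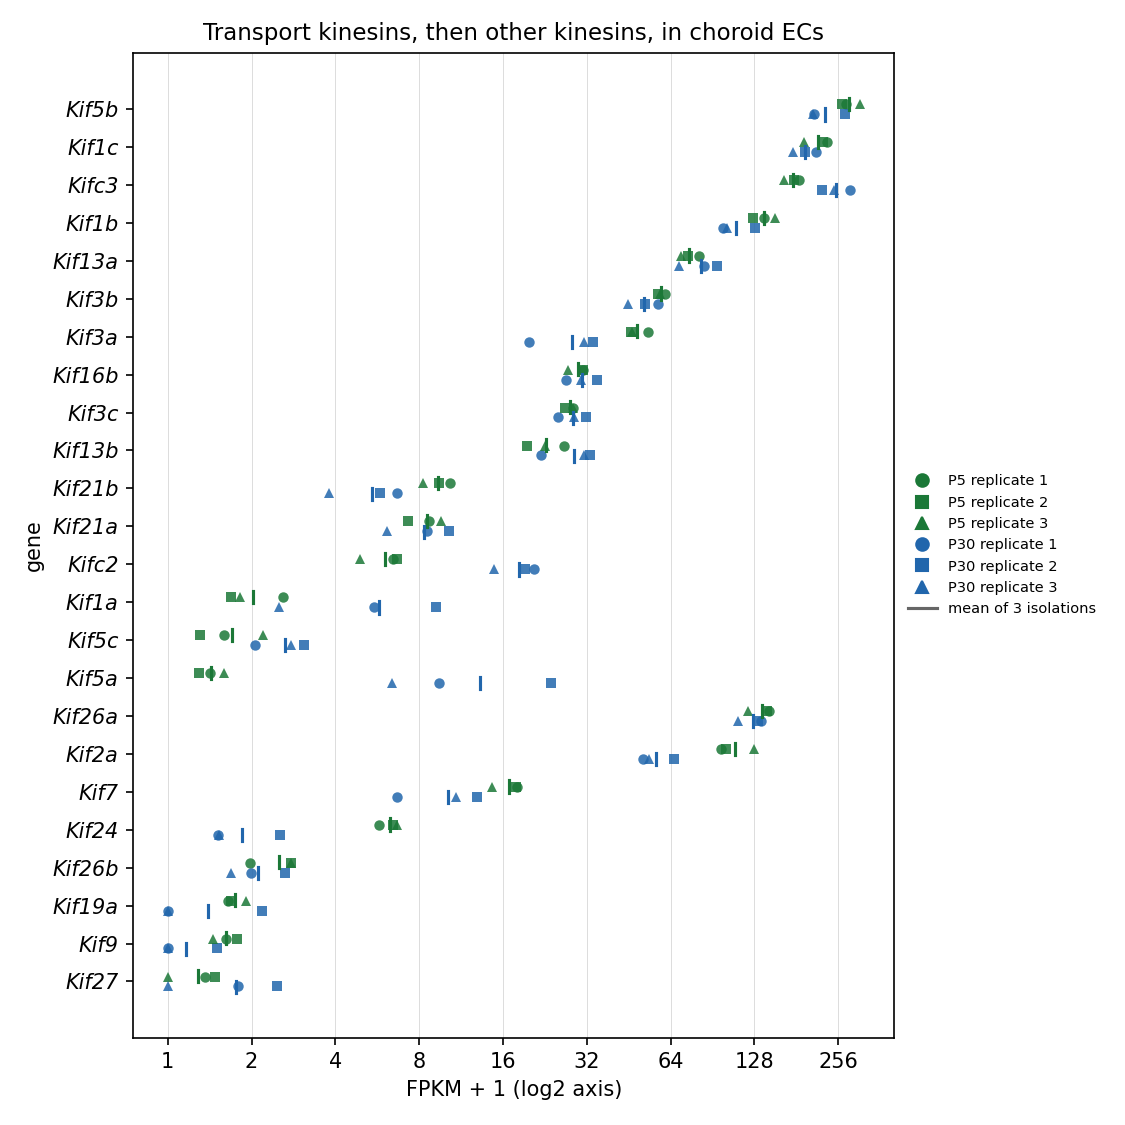
FPKM + 1 on a log2 axis for the 16 transport kinesins and the 8 other kinesins above 0 in any isolation, with 1 point per isolation and a bar at the mean of the 3 isolations. Kif5a, Kifc2 and Kifc3 lie farther right at P30, Kif3a, Kif21b, Kif2a, Kif7 and Kif24 farther left, and the remaining genes overlap.

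Of the other kinesins, Kif2a and Kif24 were nearest to a call. Kif2a, a microtubule-end motor with roles both in the spindle and in neurons, had 96.2, 100.4 and 127 FPKM at P5 and 49.8, 64.5 and 52.6 at P30. Its adjusted p passed 0.01, but the difference was just under 2-fold (-0.94 ± 0.16 SE in log2, limma adjusted p = 0.00383). Without P30 replicate 2 it was called, at a log2 fold change of -1.05. Kif24, which shortens centriolar microtubules and holds back cilia, had 4.75, 5.44 and 5.67 at P5 and 0.51, 1.52 and 0.53 at P30, with each P30 isolation lower, and missed the limit on the p-value (-1.80 ± 0.48 SE in log2, limma adjusted p = 0.0231). With a minimum mean FPKM of 1, with no minimum or with no trend, Kif24 was called, at an adjusted p from limma of 0.00918, 0.00691 and 0.00334. Its promoter was the one among those of the other kinesins that held TTCGAA, at -26. Kif7, a ciliary regulator of Hedgehog signalling, had 16.9, 16.8 and 13.6 at P5 and 5.68, 11.9 and 9.81 at P30, with each P30 isolation lower but the test not passed (-0.77 ± 0.30 SE in log2, limma adjusted p = 0.0769). Kif26a, an atypical kinesin that does not move along microtubules and acts in signalling, was the most abundant of this class, at 144, 141 and 121 at P5 and 134, 131 and 111 at P30, and its ages overlapped (-0.11 ± 0.12 SE in log2, limma adjusted p = 0.499).

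Of the 42 kinesins, 11 were below the minimum for the test. Kif2b, Kif4b, Kif6, Kif12 and Kif17 were listed at 0 in all 6 isolations. Kif9, Kif19a, Kif26b and Kif27 did not exceed 1.77 FPKM in any isolation, Kif5c did not exceed 2.09, and Kif1a reached 8.17 in P30 replicate 2.

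The light chains and adaptors of kinesins and the opposing motor, cytoplasmic dynein, were set beside the family. Of 10 kinesin adaptors, light chains and related genes tested, Cenpe was the one called lower and 0 were called higher by limma, with 2 lower and 2 higher at an unadjusted p under 0.05. Over all genes tested, 5.82% and 5.89% were called lower and higher, and 28.8% and 20.7% were lower and higher at the unadjusted limit. Klc1, the light chain of conventional kinesin with the highest FPKM, had 249, 252 and 221 at P5 and 360.3, 294 and 283 at P30, higher in each P30 isolation but not past the limits (0.37 ± 0.12 SE in log2, limma adjusted p = 0.0465). The mitochondrial adaptor Trak2 had 107, 94.8 and 96.7 at P5 and 99.3, 129.8 and 100.2 at P30, and Mapk8ip3, which links conventional kinesin to vesicles, had 77.5, 63.5 and 66.9 at P5 and 116, 105 and 90.7 at P30 (0.58 ± 0.14 SE in log2, limma adjusted p = 0.0149). Of 22 dynein and dynactin genes tested, limma called 0 in either direction, with 3 lower and 2 higher at an unadjusted p under 0.05, while 5 of the 24 listed were lower and 3 higher in every P30 isolation (33% and 22% of all genes tested). Their log2 fold changes lay between -0.50 and 0.60 around a median of -0.08. The gene of highest FPKM among them, the light chain Dynlrb1, had 452, 425 and 372 FPKM at P5 and 372, 408 and 400.4 at P30 (-0.08 ± 0.10 SE in log2, limma adjusted p = 0.576).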

How the data were processed

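RNA of sorted choroid ECs from 6 isolations, 3 at P5 and 3 at P30, was sequenced from TruSeq RNA libraries on an Illumina HiSeq2000. Per the labels and the study's methods, the authors checked reads with FastQC, aligned them to mm9 with TopHat and deposited FPKM values from CuffLinks with GC and upper quartile normalization, 1 per gene symbol. The submitters' processing notes also name CASAVA 1.8.2. Versions of the other tools and the annotation are not given in the sources used here. FPKM values keep no read counts, so depth per isolation is unknown, no counting interval is given and count tests were not used.

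The study tested read counts, which were not used here. FPKM values were instead compared on the scale of log2(FPKM + 1) by limma (version 3.58.1, R 4.3.3), using lmFit, then eBayes with its trend option and no replicate block. Genes whose mean FPKM reached 5 in either age were tested, with the limits of 0.01 on the Benjamini-Hochberg adjusted p over all 12481 genes tested and of 2-fold on mean FPKM + 1. A fold change on this scale understates that of low genes. With 3 isolations per age, a permutation test of a single value cannot go below p = 0.1, so none was run. The script was tested on simulated data. Replicates are independent isolations of pooled animals.

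Kinesins were sorted by hand into classes by role, and the members and lists were chosen with earlier results of these data known. Every kinesin tested is named, with each isolation's value for those called and for the 6 most abundant of each class, and other kinesins are given by range. From the other lists, genes called and the 3 of highest mean may be named. Gene positions and exon overlaps are those of the GENCODE vM1 annotation of mm9, and promoters are RefSeq sequences of GRCm38.p6, matched by symbol. Protein sequences were not used here. Alternatives were other pseudocounts, minima and scalings, a fit with no trend, the fold limit on the limma coefficient, a replicate block and leaving out each isolation. The sum of Kifc1 and Kifc5b was chosen after seeing the data.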

Additional observations from a re-analysis of the deposited data

How the results depend on the processing

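All 13 tested mitotic kinesins were called lower at P30 under every setting that kept the 6 isolations, with 12 when Kifc1 and Kifc5b were summed to 1 gene, and leaving out 1 isolation gave 9 to 13. Their median log2 fold change was -4.37 at a pseudocount of 0.1, -4.22 at 0.5 and -2.76 at 5, beside -3.50 as reported, and -3.68 to -3.39 with 1 isolation left out. The 2 transport kinesins called higher became 1 at a pseudocount of 5 and at a minimum mean FPKM of 10, and 0 to 2 with 1 isolation left out. Other kinesins called lower rose from 0 to 1 at a minimum of 1, with no minimum and with no trend (Kif24), with every isolation scaled to the same summed FPKM (Kif2a), and to at most 1 with 1 isolation left out, and their median was -0.46 with no minimum. The causes were not tested.

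Scaling to the same summed FPKM moved the median of all genes by -0.17 and the calls over all genes from 726 lower and 735 higher to 1067 and 631. It turned the log2 fold changes of Kif13a (-0.037), Kif16b (-0.13) and Kif3c (-0.14), none of which was called. With 1 isolation left out, the signs of Kif16b (-0.059 to 0.13), Kif21a (-0.23 to 0.15) and Kif3c (-0.055 to 0.11), also not called, depended on the isolation. Over all genes, 291 to 754 were then called lower and 396 to 849 higher. Of the values of single kinesins under all alternatives, 549 kept their side of the limits and their direction, 21 lost a call, 5 gained one and 9 changed sign.

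Isolations with the same replicate number did not deviate together from their age means (correlations of -0.06, -0.09 and -0.03), so the numbers were not taken as pairs. With the replicate number as a block, 13 mitotic kinesins were called lower and 0 transport kinesins higher, where Kif5a (adjusted p = 0.0198) and Kifc2 (adjusted p = 0.0124, limma) lost their calls, and 524 genes were called lower and 585 higher over all genes. The block left the medians at -3.50, -0.02 and -0.86.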
